A study of Mus musculus with 6 samples.

Results

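Transcripts of 10 genes for endolysosomal cation channels, lysosomal transcription factors and lysosomal membrane glycoproteins were measured in marginal zone (MZ) B cells, with and without CD55. The genes were the mucolipins Mcoln1, Mcoln2 and Mcoln3, the two-pore channels Tpcn1 and Tpcn2, the transcription factors Tfeb, Tfe3 and Mitf, and the glycoproteins Lamp1 and Lamp2. They were chosen by symbol, and all 10 were found among 55487 gene IDs and passed the filter on low counts, which kept 13794 genes. The family was assembled around Mcoln2 after that gene had been found higher in CD55-deficient cells, so the genotype difference of Mcoln2 is the value that chose the family and is given as a description.

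MZ B cells are splenic B cells that respond early to blood-borne antigens. Mice were 14 weeks old, their B cells were enriched by negative selection and MZ B cells were then flow-sorted, and RNA was sequenced in bulk in 3 libraries labelled CD55KO, from CD55 KO mice, and 3 labelled WT, from WT C57BL/6 mice. CD55, or decay-accelerating factor, limits complement activation on the membrane that carries it. No treatment is given for either group. The design of the Cd55 allele, the strain background of the CD55 KO mice and whether each library came from its own mouse are not stated in the labels, so the p-values cover the spread among these libraries alone, and that spread may be technical.

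Mucolipins, also called TRPML channels, release calcium and other cations from endosomes and lysosomes and open in response to the phosphoinositide that PIKfyve makes. TRPML1 is found in most cells and TRPML2 mainly in immune cells, where it has been placed in recycling endosomes. Two-pore channels let sodium and calcium out of the same compartments. TFEB, TFE3 and MITF are related basic helix-loop-helix factors that bind E-boxes, among them the CLEAR elements of lysosomal genes. The kinase mTORC1 holds them in the cytosol in fed cells, and calcium leaving through TRPML1 can free them through the phosphatase calcineurin. LAMP1 and LAMP2 are the major glycoproteins of the lysosomal membrane.

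Total counts ranged from 20056111 to 30784090 per library, with the lowest in WT replicate 1. On the leading principal component (28.8% of the variance) it was the library farthest from the rest. Cd55 itself was at 118 ± 7.69 CPM in the WT libraries and at 7.53 ± 1.36 CPM in those labelled CD55KO (SD, n = 3), with an adjusted p of 3.9e-12. CPM stands for counts per 1000000 counts of a library, here scaled by TMM, a correction for library composition. The defining genes of MZ B cells were abundant in all 6 libraries, with Cr2, the complement receptor CD21, between 1032 and 1171 CPM. None of the 10 genes lies on chromosome 1, where Cd55 lies.

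The E-box CACGTG was looked for in the RefSeq promoter windows of the family (GRCm38.p6, from 250 bases before to 50 after a start), because it is the core that TFEB, TFE3 and MITF bind. Windows were found for 9 of the 10 genes, 14 windows in all, and the search covered both strands, which read alike for this palindrome. Mcoln1, Mcoln2 and Lamp1 held it, with 2, 1 and 4 copies. Over all 32851 windows of the table, 7.15% held it. The sites of the pair of mucolipins and those of Lamp1 are printed 5′ to 3′ with 10 bases on each side and the CACGTG in capitals, so that the differing flanks can be read. The fourth Lamp1 copy, whose flank runs past the start, is left out.
Mcoln1, 71 bases before the start, chr8:3500438-3500463, plus strand: tcgcgcttgtCACGTGttcagttcag
Mcoln1, 45 bases before the start, chr8:3500464-3500489, plus strand: gcgccccgctCACGTGaccgcggcgc
Mcoln2, 72 bases before the start, chr3:146150092-146150117, plus strand: cctgagctcaCACGTGgaccccattc
Lamp1, 61 bases before the start, chr8:13159090-13159115, plus strand: ggcaagatatCACGTGgtccagcgcc
Lamp1, 45 bases before the start, chr8:13159106-13159131, plus strand: gtccagcgccCACGTGatgccgactg
Lamp1, 28 bases before the start, chr8:13159123-13159148, plus strand: tgccgactggCACGTGaccacatcac
The second Mcoln1 site holds the longer palindrome TCACGTGA, found in 0.974% of all windows. The Mcoln2 site has no such flank on either side. No window of Mcoln3, Tpcn2, Tfeb, Tfe3, Mitf or Lamp2 held CACGTG, which says only that these letters are not in the windows searched. A match is a string of letters, and binding was not measured. The RefSeq starts used here lie inside the gene bodies of Mcoln1 and Mcoln2 as GENCODE draws them.

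Mcoln2 was the mucolipin with the highest level and the 1 gene of the family called between the genotypes. The gene (ENSMUSG00000011008) lies on the plus strand of chromosome 3, from 146149833 to 146195513 (GRCm38). It had 102, 87.3 and 78.9 CPM in CD55KO replicates 1 to 3, against 62.3, 60.8 and 62.5 CPM in WT replicates 1 to 3. All 3 CD55KO libraries lay above all 3 WT libraries, and the CD55KO libraries spread more widely, with replicate 1 the highest. These values rest on 2157 to 2776 counts per CD55KO library and 1283 to 1905 per WT library. The means were 89.3 ± 11.6 CPM in CD55KO against 61.9 ± 0.93 CPM in WT (SD, n = 3), and the fitted fold was 1.44 (95% interval 1.27 to 1.64). The log2 fold change was 0.53 ± 0.09 (SE), with an adjusted p of 0.0082 over all tested genes in edgeR's quasi-likelihood test. In bulk RNA, a change in the number of cells that carry a transcript and a change in its amount per cell cannot be told apart.

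Among all tested genes 0.138% were called higher in CD55KO and 0.261% lower, 0.399% in all. For 14.1% of tested genes the 3 CD55KO values lay entirely above or entirely below the 3 WT values. As Mcoln2 chose the family, nothing is read from 1 call among 10 genes. Mcoln2 kept its direction without any 1 library, but its adjusted p was 0.052 without WT replicate 2 and 0.053 without WT replicate 3, so that neither fit called it. The log2 fold change was smallest, 0.43, without CD55KO replicate 1.

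**Figure D1:**
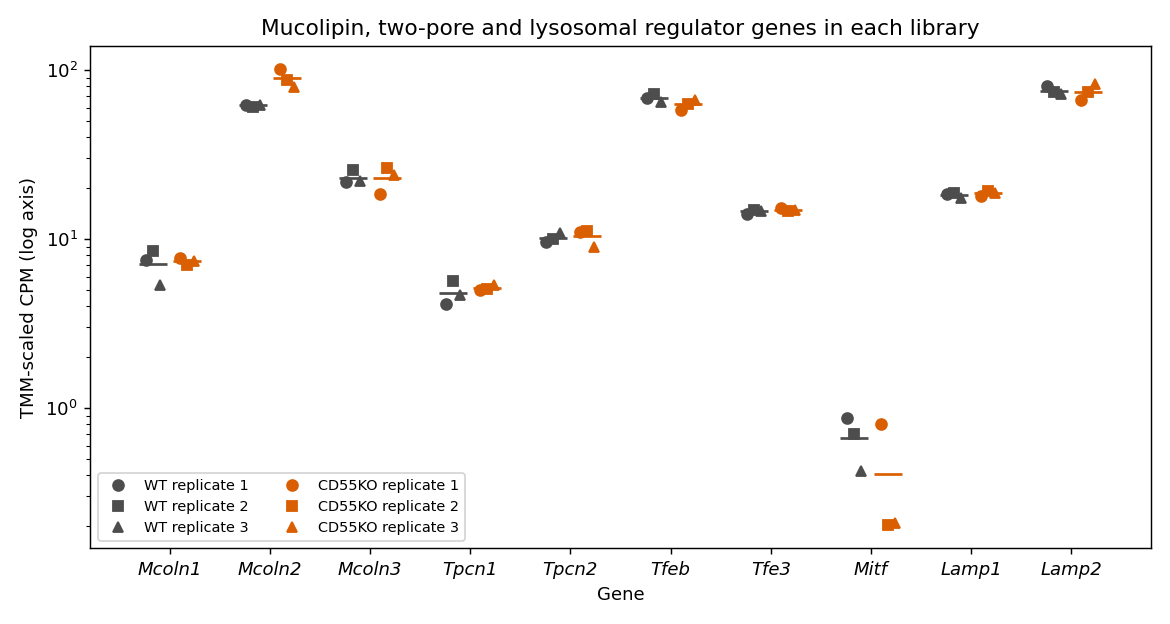
TMM-scaled CPM of each gene (log axis) in the 3 WT libraries (grey) and the 3 CD55KO libraries (orange). Points are libraries and horizontal lines are group means. Mcoln2 is the 1 gene whose groups do not overlap, at 78.9 to 102 CPM in CD55KO against 60.8 to 62.5 CPM in WT.

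Mcoln3, the mucolipin gene next to Mcoln2, did not show this separation. It lies on the plus strand of chromosome 3, from 146117450 to 146141806, and ends 8.03 kb before Mcoln2 begins. It had 18.5, 26.3 and 23.9 CPM in CD55KO replicates 1 to 3, against 21.7, 25.6 and 22.1 CPM in WT replicates 1 to 3. CD55KO replicate 1, the library with the most Mcoln2, had the least Mcoln3. The groups overlapped, and the log2 fold change was -0.02 (95% interval -0.28 to 0.25, adjusted p = 0.99). The interval allows a change of up to 1.19-fold upwards.

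Mcoln1, the gene of the lysosomal channel TRPML1 that is lost in mucolipidosis type IV, was the least abundant mucolipin. It lies on the plus strand of chromosome 8, from 3500457 to 3515232. It had 7.70, 7.04 and 7.43 CPM in CD55KO replicates 1 to 3, against 7.48, 8.56 and 5.33 CPM in WT replicates 1 to 3. The WT libraries held both the highest and the lowest value. The log2 fold change was 0.05 (95% interval -0.33 to 0.44, adjusted p = 0.98).

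Levels of different genes are compared only per kilobase of annotated exon. Mcoln2 made up 72.4, 68.5 and 72.8% of the mucolipin signal per kilobase in WT replicates 1 to 3, against 83.0, 75.7 and 75.3% in CD55KO replicates 1 to 3. Mcoln3 made up 25.2 ± 1.85% in WT and 19.2 ± 4.21% in CD55KO, and Mcoln1 3.56 ± 0.77% and 2.82 ± 0.23% (SD, n = 3). Mcoln2 thus held the larger part in each library, with the CD55KO libraries above the WT libraries. The ratio of Mcoln2 to Mcoln3 per kilobase was 5.80, 3.50 and 3.49 in CD55KO replicates 1 to 3, against 3.03, 2.51 and 2.98 in WT replicates 1 to 3. The groups of Mcoln2 to Mcoln3 ratios did not overlap. The ratio of Mcoln2 to Mcoln1 per kilobase was 30.4, 28.5 and 24.4 in CD55KO replicates 1 to 3. In WT replicates 1 to 3 it was 19.1, 16.3 and 27.0, so the groups of this ratio overlapped. Because both ratios contain the gene that chose the family, their differences between the genotypes were not tested.

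**Figure D2:**
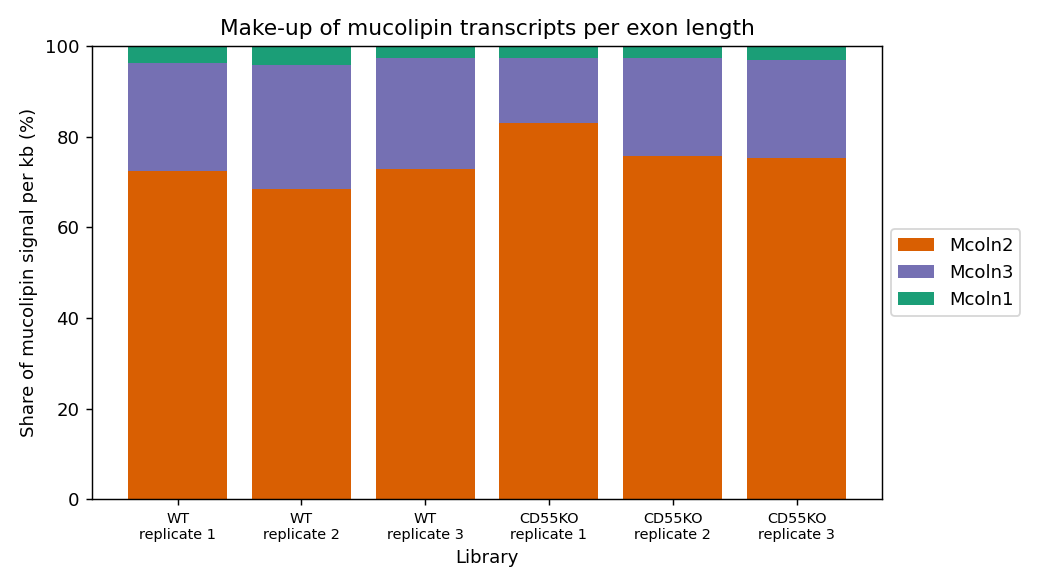
Share of each mucolipin in the summed mucolipin signal per kilobase of exon (%), for each library. Mcoln2 takes 68.5 to 72.8% in WT and 75.3 to 83.0% in CD55KO.

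The mucolipin transcripts differ enough to be told apart over 50 bases (the read length is not given in the labels). Of the stretches of 50 bases in annotated Mcoln2 and Mcoln3 transcripts (GENCODE M21), 0% occurred in a transcript of any other gene, on either strand. The share was 1.03% for Mcoln1. No annotated gene in the deposited table overlapped any of the 3.

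Both two-pore channel genes were low, with overlapping groups. Tpcn2 encodes the lysosomal channel and had 10.999, 11.1 and 8.97 CPM in CD55KO replicates 1 to 3, against 9.62, 10.03 and 10.8 CPM in WT replicates 1 to 3. The CD55KO values surrounded the WT values, with a log2 fold change of 0.03 (95% interval -0.27 to 0.33, adjusted p = 0.99). Tpcn1 encodes a channel that is also found in earlier endosomes and had 4.99, 5.06 and 5.32 CPM in CD55KO replicates 1 to 3, against 4.13, 5.65 and 4.69 CPM in WT replicates 1 to 3. Here the WT values surrounded the CD55KO values, and the log2 fold change was 0.08 (95% interval -0.32 to 0.49, adjusted p = 0.96). Tpcn2 made up 77.3 ± 2.78% of the two-pore signal per kilobase in WT and 76.4 ± 2.86% in CD55KO. Tpcn2 lies on chromosome 7, from 145186524 to 145284011, and Tpcn1 on chromosome 5, from 120534153 to 120588673, both on the minus strand. The gene body of Smim38 overlaps that of Tpcn2, and that of 2510016D11Rik overlaps Tpcn1, on the same strand. Of the 50-base stretches of annotated Tpcn2 transcripts, 0% occurred in a transcript of another gene. The share was 0.0951% for Tpcn1, with Ccdc60 and Zhx3 and not with 2510016D11Rik.

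Tfeb was by far the most abundant of the 3 related transcription factor genes. It lies on the plus strand of chromosome 17, from 47737030 to 47792419. It had 58.0, 63.3 and 66.5 CPM in CD55KO replicates 1 to 3, against 68.3, 72.1 and 64.4 CPM in WT replicates 1 to 3. CD55KO replicate 3 lay above WT replicate 3, and the other CD55KO libraries lay below all WT libraries. The log2 fold change was -0.12 ± 0.08 (SE, 95% interval -0.29 to 0.04), with an adjusted p of 0.73. Tfeb took 87.7 ± 0.41% of the signal per kilobase of the 3 factors in WT and 86.8 ± 1.41% in CD55KO.

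Tfe3 was the steadiest gene of the 3 factors across libraries. It lies on the plus strand of chromosome X, from 7762560 to 7775202, and had 15.4, 14.6 and 14.9 CPM in CD55KO replicates 1 to 3. In WT replicates 1 to 3 it had 14.1, 14.9 and 14.7 CPM. The log2 fold change was 0.03 (95% interval -0.20 to 0.27, adjusted p = 0.98). The ratio of Tfeb to Tfe3 per kilobase was 6.85 ± 0.59 in CD55KO and 7.65 ± 0.43 in WT (SD, n = 3), with overlapping libraries.

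Mitf, the factor best known from melanocytes and osteoclasts, was close to the limit of detection. It had 22, 5 and 6 counts in CD55KO replicates 1 to 3, against 18, 22 and 12 counts in WT replicates 1 to 3. In CPM these were 0.81, 0.20 and 0.21 in CD55KO and 0.87, 0.70 and 0.43 in WT, where a count of 0 allows up to 0.0958 to 0.146 CPM depending on the library (counting error only). CD55KO replicates 2 and 3 were below all WT libraries and CD55KO replicate 1 was among them. The log2 fold change of -0.69 had a 95% interval of -1.93 to 0.54 (adjusted p = 0.82), so changes in either direction remain possible. Mitf lies on the plus strand of chromosome 6, from 97807052 to 98021349, and Gm15531 overlaps it on the opposite strand.

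Lamp2 and Lamp1, whose proteins line the lysosome, had overlapping groups. Lamp2 encodes the glycoprotein needed for chaperone-mediated autophagy and lies on the minus strand of chromosome X, from 38401357 to 38456454. It had 66.4, 74.2 and 82.9 CPM in CD55KO replicates 1 to 3, against 80.2, 74.4 and 71.7 CPM in WT replicates 1 to 3. The CD55KO values surrounded the WT values, with a log2 fold change of -0.02 (95% interval -0.20 to 0.16, adjusted p = 0.99). Lamp1 had 17.9, 19.3 and 18.7 CPM in CD55KO replicates 1 to 3, against 18.4, 18.8 and 17.5 CPM in WT replicates 1 to 3. Its groups overlapped, and the log2 fold change was 0.03 (95% interval -0.19 to 0.25, adjusted p = 0.98).

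Lamp1 was the 1 gene of the family whose deposited counts were not whole numbers (tolerance 0.005), in all 6 libraries. It lies on the plus strand of chromosome 8, from 13159161 to 13175338, and Grtp1 overlaps it on the opposite strand. Of the 50-base stretches of Lamp1 transcripts, 5.90% also occur in transcripts of Grtp1, when both strands are read. Strand was not kept by the library kit, so reads of Lamp1 and Grtp1 in those stretches cannot be told apart, and how much this moves the level of Lamp1 was not measured.

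The 9 genes other than Mcoln2 had log2 fold changes from -0.69 to 0.08 and adjusted p from 0.73 to 0.99, and the libraries of the genotypes overlapped for all 9. Neither limma-voom nor DESeq2 called any of them, and DESeq2 gave no adjusted p for Mitf. Over all 10 genes the median log2 fold change was 0.03, beside 0.0015 over all tested genes. A p above the threshold does not show that a gene did not change, and the intervals give the sizes that remain possible.

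**Figure D3:**
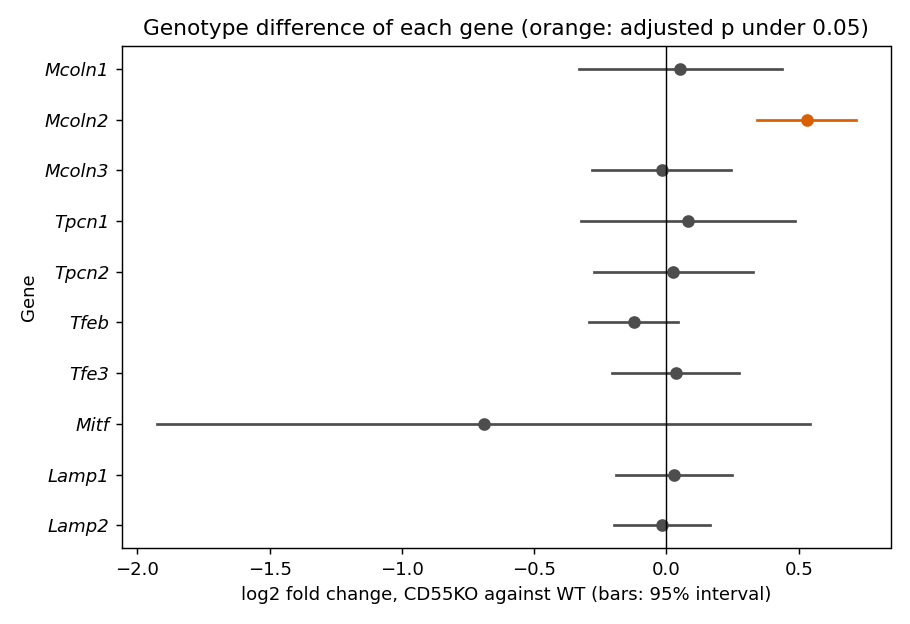
Fitted log2 fold change of CD55KO against WT for each gene, with bars for the 95% interval. Mcoln2 lies at 0.53 with an interval from 0.34 to 0.71, and the intervals of the other 9 genes include 0.

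Ordered by level per kilobase of exon, Mcoln2 came first in WT, at 18.8 ± 0.28 CPM per kilobase. Tfeb followed at 12.0 ± 0.68, Lamp2 at 7.90 ± 0.45, Lamp1 at 6.82 ± 0.24 and Mcoln3 at 6.67 ± 0.62 CPM per kilobase (SD, n = 3). Tpcn2 had 1.93 ± 0.12, Tfe3 1.57 ± 0.04, Mcoln1 0.94 ± 0.22, Tpcn1 0.57 ± 0.09 and Mitf 0.11 ± 0.04 CPM per kilobase. In WT, the neighbours Lamp1 and Mcoln3 overlapped and all other neighbours in this order did not. The WT level of Mcoln2 was above that of 82.0% of tested genes with an annotated length, that of Tfeb above 75.2% and that of Mcoln1 above 26.0%.

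The order was the same in CD55KO, where Mcoln2 had 27.2 ± 3.52 and Tfeb 11.04 ± 0.75 CPM per kilobase. There Lamp2 overlapped with Lamp1 as well as Lamp1 with Mcoln3. Annotated exon length sums the exons of every isoform, and for Mcoln1 it came to 7555 bases against 2065 in the longest coding transcript. Per kilobase of the longest coding transcript, Tfeb came before Mcoln2 in WT (29.1 and 24.6 CPM per kilobase) and after it in CD55KO (26.7 and 35.4). Tfe3 and Mcoln1 then moved ahead of Tpcn2. Lamp2 stood further above Lamp1 on this scale, at 20.9 against 8.18 CPM per kilobase in WT and 20.7 against 8.35 in CD55KO. Mcoln2 remained the larger part of the mucolipin signal on this scale, with 68.8 ± 2.95% in WT and 75.8 ± 3.95% in CD55KO. Mcoln1 made up more than on the exon scale, with 9.61 ± 1.98% in WT and 7.69 ± 0.60% in CD55KO. The size of the Mcoln2 to Mcoln1 ratio thus depends on the length used.

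**Figure D4:**
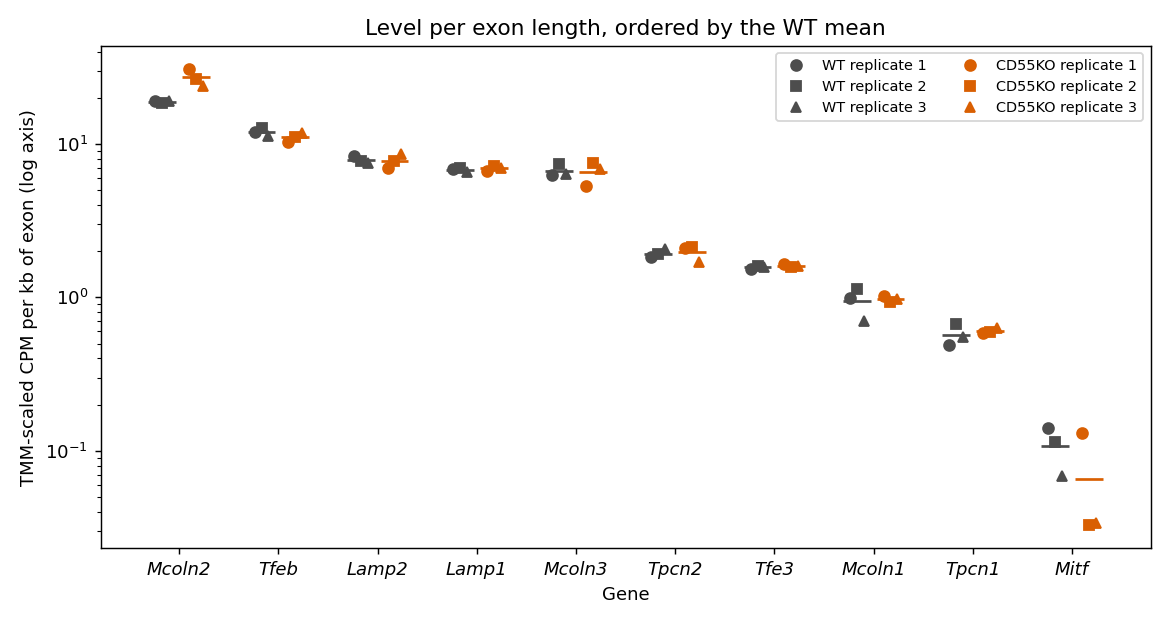
TMM-scaled CPM per kilobase of annotated exon (log axis) in each WT (grey) and CD55KO (orange) library, with genes ordered by the WT mean. Points are libraries and lines are group means. The means run from 18.8 for Mcoln2 to 0.11 for Mitf in WT, and the order is the same in CD55KO.

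The wider endolysosomal system was read through 11 lists of genes chosen by function. Of their 238 genes 230 were tested, and none passed the threshold in either direction by edgeR, limma-voom or DESeq2. Over all tested genes edgeR called 55 (0.399%), limma-voom 50 and DESeq2 138. By edgeR 17 of the 230 had an unadjusted p under 0.05, while 8.60% of all tested genes did. Log2 fold changes were positive for 119 and negative for 111, with a median of 0.01. CD55KO and WT values were fully separate for 35 of the 230 (15.2%), beside 14.1% of all tested genes. The tested genes named below are the 2 of smallest p in each list. Of those named, Pdcd6ip, Calm2, Arl8b, Stx8, Tfrc and Foxo1 had overlapping libraries, and the rest were fully separate.

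Lists that TFEB and its relatives are known to act on were centred near 0. The proton pump that acidifies lysosomes was represented by 17 tested V-ATPase subunits, 8 with positive and 9 with negative log2 fold changes (median -0.02). Atp6v0b, a subunit of its membrane sector, had 98.1 ± 5.02 CPM in CD55KO against 118 ± 16.2 CPM in WT (adjusted p = 0.34). Atp6ap2, an accessory subunit, had 73.3 ± 4.76 and 64.5 ± 3.78 CPM (adjusted p = 0.52). Among 43 lysosomal hydrolases 19 were positive and 24 negative (median -0.0051). Naglu, an enzyme of heparan sulfate breakdown, had 10.02 ± 0.57 CPM in CD55KO against 14.2 ± 3.38 CPM in WT (adjusted p = 0.31). Asah1, the acid ceramidase gene, had 57.5 ± 4.0 and 49.7 ± 4.75 CPM (adjusted p = 0.52).

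Of 25 tested lysosomal membrane proteins and transporters 16 were positive and 9 negative (median 0.03). Tspan3, a tetraspanin gene, had 11.7 ± 1.82 CPM in CD55KO against 16.3 ± 0.76 CPM in WT (adjusted p = 0.22). Cln3, the gene of juvenile Batten disease, had 26.0 ± 1.35 and 29.5 ± 1.15 CPM (adjusted p = 0.61). Of 31 tested autophagy genes 16 were positive and 15 negative (median 0.02). Atg10, which encodes an E2-like enzyme for ATG12 conjugation, had 17.1 ± 1.25 CPM in CD55KO against 12.7 ± 1.35 CPM in WT (adjusted p = 0.22). Atg4b, which encodes a protease that processes LC3, had 52.6 ± 4.15 and 63.1 ± 0.50 CPM (adjusted p = 0.27).

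The other channels of these organelles showed no call either. Of 13 tested ion channels and exchangers 6 were positive and 7 negative (median -0.0043), and Kcnma1 had 0 counts in all 6 libraries. Trpm2, a cation channel gated by ADP-ribose, had 14.7 ± 1.57 CPM in CD55KO against 11.7 ± 0.84 CPM in WT (adjusted p = 0.44). Tmem63b, a mechanosensitive channel gene, had 3.20 ± 0.68 and 4.29 ± 0.23 CPM (adjusted p = 0.63). Of 7 tested calcium sensors and NAADP-binding proteins 3 were positive and 4 negative (median -0.0052), and Syt7 had 0 counts in all libraries. Pdcd6ip, the gene of the ESCRT partner ALIX, had 49.9 ± 0.92 CPM in CD55KO against 56.1 ± 8.93 CPM in WT (adjusted p = 0.71). Calm2, a calmodulin gene, had 386 ± 14.5 and 362 ± 19.6 CPM (adjusted p = 0.83).

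Genes upstream of the channels and of TFEB were likewise not called. Of 17 tested genes for PIKfyve and other phosphoinositide enzymes 9 were positive and 8 negative (median 0.01). Mtmr4, an endosomal phosphoinositide phosphatase gene, had 37.1 ± 1.64 CPM in CD55KO against 46.2 ± 1.73 CPM in WT (log2 fold change -0.32, adjusted p = 0.16), without overlap of the libraries. Becn1, a subunit gene of the class III phosphoinositide 3-kinase complex, had 79.3 ± 2.89 and 86.3 ± 3.23 CPM (adjusted p = 0.69). Of 23 tested mTORC1, Rag, folliculin and calcineurin genes 13 were positive and 10 negative (median 0.04). Rragc, a Rag GTPase gene through which mTORC1 reaches TFEB, had 10.6 ± 0.20 CPM in CD55KO against 7.59 ± 0.32 CPM in WT (log2 fold change 0.48, adjusted p = 0.24), again without overlap. Ppp3ca, a catalytic subunit gene of calcineurin, had 73.4 ± 1.39 and 66.0 ± 3.32 CPM (adjusted p = 0.58).

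Trafficking genes were counted in separate lists for late and for early endosomes. Of 23 tested genes for late endosome fusion and lysosome positioning 12 were positive and 11 negative (median 0.0083). Arl8b, the GTPase gene that moves lysosomes outwards, had 65.6 ± 4.61 CPM in CD55KO against 72.4 ± 2.72 CPM in WT (adjusted p = 0.65). Stx8, a SNARE gene, had 37.8 ± 3.50 and 33.7 ± 0.43 CPM (adjusted p = 0.67). Of 20 tested recycling and early endosome genes 8 were positive and 12 negative (median -0.03). Ehd3, which encodes a membrane-remodelling ATPase of recycling endosomes, had 30.4 ± 0.89 CPM in CD55KO against 23.5 ± 1.05 CPM in WT (log2 fold change 0.37, adjusted p = 0.12), without overlap. Tfrc, the transferrin receptor gene, had 7.99 ± 1.29 and 10.7 ± 2.80 CPM (adjusted p = 0.55).

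Of 11 tested genes for other E-box factors and B cell factors 9 were positive and 2 negative (median 0.10), and Tfec, the fourth relative of TFEB, had 0 counts in all 6 libraries. Foxo3 had 37.6 ± 1.21 CPM in CD55KO against 32.7 ± 2.21 CPM in WT (adjusted p = 0.54), and Foxo1 had 61.4 ± 3.61 and 54.4 ± 4.07 CPM (adjusted p = 0.58). Both are forkhead factors, which can raise autophagy genes.

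**Figure D5:**
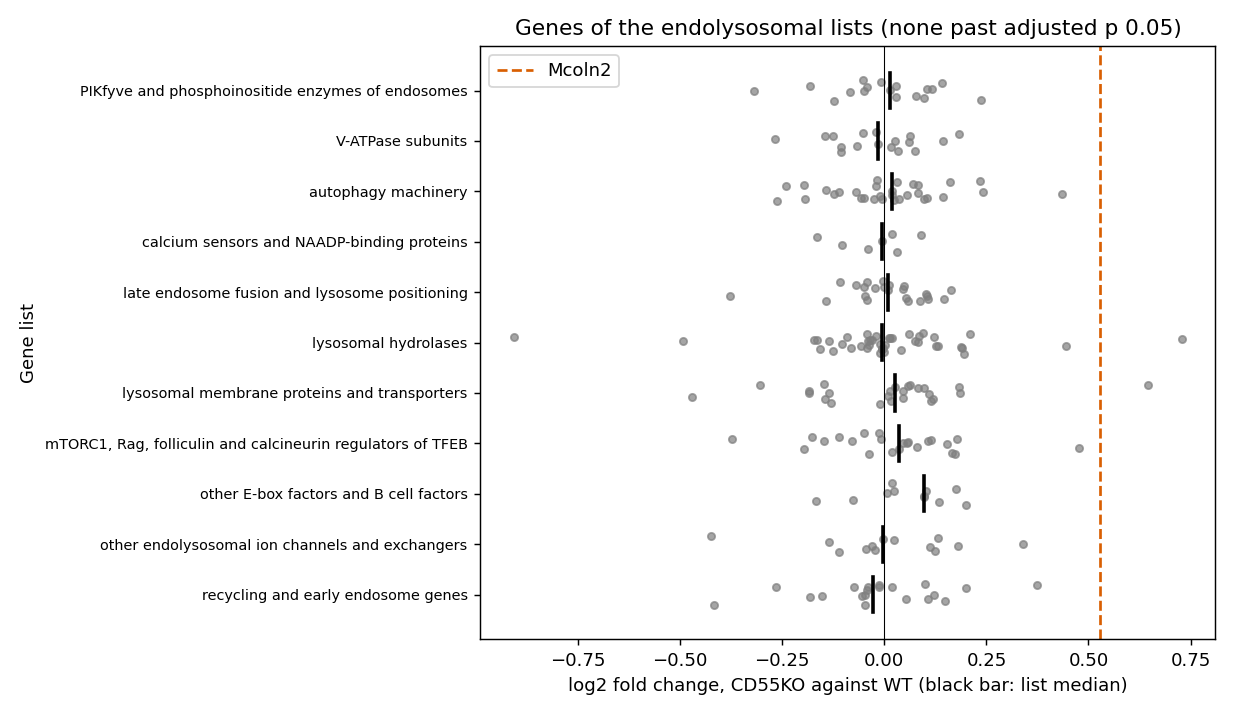
Log2 fold change of CD55KO against WT for each tested gene (points) of the 11 endolysosomal lists, with black bars for list medians and a dashed line at Mcoln2 (0.53). List medians lie between -0.03 and 0.10.

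The genes most like Mcoln2 were found by the root mean square difference between log2 CPM profiles over the 6 libraries, each gene centred on its own mean. They were Stoml1 (0.04), Cd200 (0.07), Nmnat3 (0.07), Herc3 (0.08) and Phykpl (0.08), all on the log2 scale. A gene close to Mcoln2 on this measure has to be higher in CD55KO, and to follow it from library to library, so neither is a separate result. Stoml1, a stomatin-like protein gene of late endosomes, had 71.5, 62.0 and 57.0 CPM in CD55KO replicates 1 to 3, against 44.7, 46.3 and 47.3 CPM in WT replicates 1 to 3. Cd200, which encodes an inhibitory surface ligand, had 28.1, 25.6 and 20.6 CPM in CD55KO against 17.9, 18.2 and 16.9 CPM in WT.

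No other gene around Mcoln2 was called. Within 1 Mb of it, 12 genes were tested with log2 fold changes from -0.06 to 0.71 and a median of 0.15, and the smallest adjusted p was 0.48. By edgeR 2 of the 12 had an unadjusted p under 0.05, beside 8.6% of all tested genes, and none was called by DESeq2 or limma-voom. CD55KO and WT values were fully separate for 2 of the 12, beside 14.1% of all tested genes. After Mcoln3 the nearest named gene was Bcl10, an adaptor of NF-kB signalling at 215 kb, with 69.7 CPM in CD55KO against 62.4 CPM in WT (adjusted p = 0.68).

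Lysosomal genes are high in macrophages, so markers of other cells were read beside Mcoln2. The summed level of 16 macrophage and monocyte markers was 45.9, 34.6 and 38.2 CPM in CD55KO replicates 1 to 3, against 34.6, 30.4 and 26.3 CPM in WT replicates 1 to 3. The highest members in each library were Cd68 (15.3 to 16.8 CPM in CD55KO, 10.7 to 13.2 CPM in WT) and Spic (10.7 to 13.4 CPM in CD55KO, 6.02 to 8.28 CPM in WT). The complement genes C1qa, C1qb and C1qc stayed at or below 0.917 CPM in every library, and Fcgr1 had 0 counts in 5 libraries. Log2 fold changes were positive for 6 and negative for 5 of the 11 tested markers (median 0.26). Spic (0.69), Adgre1 (0.65) and Cd5l (0.57) were the largest positive ones. Lyz2 (-0.48), Csf1r (-0.45) and Hmox1 (-0.32) were the largest negative ones. Neither edgeR nor limma-voom called any of the 11, and DESeq2 called 1, beside 138 over all tested genes. In the edgeR fit 2 of the 11, Spic and Cd68, had an unadjusted p under 0.05, beside 8.6% of all tested genes. The genotypes did not overlap for 3 of the 11 (Spic, Cd68 and Cd5l), each higher in CD55KO. Among all tested genes 14.1% did not overlap, in either direction. The part of these cells in the Mcoln2 difference was not tested.

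Of the 7 neutrophil markers none was tested, and Ly6g, Elane and Camp had 0 counts. The summed level of 8 germinal centre markers was 28.3 to 38.2 CPM in CD55KO against 32.5 to 83.8 CPM in WT, and 7 of the 8 had negative log2 fold changes (median -1.04). By edgeR 1 of the 8, Gcsam, was called lower (adjusted p = 0.034), beside 0.261% of all tested genes. Without 1 library its adjusted p rose to as much as 0.16, and it was not called in any of the 6 fits. DESeq2 called 2 of the 8, beside 138 of all 13794 tested genes, and limma-voom 0, beside 50. The genotypes did not overlap for 3 of the 8, each lower in CD55KO, beside 14.1% of all tested genes in either direction. The 8 plasma cell markers summed to 917 to 1103 CPM in CD55KO against 1051 to 1183 CPM in WT. Most of this sum was Mzb1 alone, at 760 to 930 CPM in CD55KO and 835 to 988 CPM in WT. Sdc1 had 0.525 to 1.76 CPM in CD55KO and 1.21 to 2.62 CPM in WT. Of the 7 tested plasma cell markers 6 had negative log2 fold changes (median -0.59). Unadjusted p was under 0.05 by edgeR for 3 of the 7, beside 8.6% of all tested genes. By edgeR Xbp1 was called lower (adjusted p = 0.0047), as were 0.261% of all tested genes. Without 1 library Xbp1 was called in each of the 6 edgeR fits (adjusted p 0.0018 to 0.037). DESeq2 and limma-voom each called 1 of the 7, beside 138 and 50 of all tested genes. For Xbp1, Prdm1 and Jchain all CD55KO libraries lay below all WT libraries. Among all tested genes 14.1% were fully separate in either direction. The part of germinal centre and plasma cells in the Mcoln2 difference was not tested. Erythroid markers summed to 36.2 to 2002 CPM in CD55KO against 106 to 4388 CPM in WT, with the highest level in WT replicate 1. Without that library the log2 fold change of Mcoln2 was 0.53 (adjusted p = 0.032). That fit does not even out the erythroid level. The sums left were 2002, 1602 and 36.2 CPM in CD55KO replicates 1 to 3, against 359 and 106 CPM in WT replicates 2 and 3. The part of erythroid cells in the Mcoln2 difference was not tested. None of the 10 tested MZ B cell markers was called by edgeR, DESeq2 or limma-voom, and their median log2 fold change was 0.01. By edgeR 1 of the 10 had an unadjusted p under 0.05, beside 8.6% of all tested genes. None of 5 tested follicular B cell markers was called by these tests, with 4 positive and 1 negative (median 0.07). Fcer2a had 227, 145 and 116 CPM in CD55KO replicates 1 to 3, against 172, 155 and 104 CPM in WT replicates 1 to 3. The part of follicular B cells in the Mcoln2 difference was not tested.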

How the data were processed

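Messenger RNA was measured in 3 CD55KO and 3 WT libraries of sorted MZ B cells. RNA came from an RNeasy micro kit extraction, per the labels' protocols, and the SMARTer Ultra Low RNA kit was used for the libraries. That kit leaves strand unmarked. The authors deposited estimated counts per gene, without scaling. DRAGEN, edgeR and limma are listed in the submitters' processing notes. For the aligner settings, the build and the annotation, nothing is given in the sources used here. Groups and replicate numbers came from the titles. Of 55774 rows 287 repeated ones were removed, and counts were rounded.

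Counts of replicates differed beyond sampling noise, with a chi-square of 14.2 to 36.1 per degree of freedom. Genes were kept by filterByExpr (minimum count 10, minimum total 15). TMM scaling and the robust quasi-likelihood F-test of edgeR 4.0.16 (R 4.3.3) were fitted to all tested genes with genotype alone, with Benjamini-Hochberg adjustment and a threshold of 0.05. SEs were taken from the F statistic. Positions and exon lengths came from GENCODE M21 (GRCm38), where 99.4% of IDs were found, and promoter sequences from RefSeq. The fit was tested on simulated data. Alternatives were the replicate number as a block, other scalings, DESeq2 1.42.0, limma-voom (limma 3.58.1), other filters, a non-robust fit and leaving out each library.

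All 10 genes are named, with the 2 genes of smallest p in each list where none passed, the 5 genes most like Mcoln2, and the 2 nearest named neighbours. Kcnma1, Syt7, Tfec and single marker genes were picked out with their values in view. The members and lists were chosen with earlier results of these data known.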

Additional observations from a re-analysis of the deposited data

How the results depend on the processing

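Mcoln2 was called under each of the 9 other scalings, filters and tests (log2 fold change 0.50 to 0.53, adjusted p 1.7e-07 to 0.033). Leaving out 1 library gave 0.43 to 0.61, with adjusted p from 0.0058 to 0.053, and it was called in 4 of 6 fits, so that the number of members called went from 1 to 0 without WT replicate 2 or 3. Tfeb, Tfe3, Mitf and Lamp1 kept their sign in every fit in which they were tested, and Mitf was not tested under the stricter filter. The sign turned for Mcoln3 with quality weights (0.0029), and without 1 library for Mcoln1 (-0.12 to 0.21), Mcoln3 (-0.13 to 0.11), Tpcn1 (-0.014 to 0.21), Tpcn2 (-0.030 to 0.12) and Lamp2 (-0.10 to 0.061), none of which was called in any fit. Over all genes 55 were called (19 higher, 36 lower). DESeq2 called 138 (60 higher, 78 lower) and the fit with no filter 232 (104 higher, 128 lower), where 1 gene of the lists, Ehd3, was called. Without 1 library 37 to 53 were called, 12 to 20 of them higher, with 12 without WT replicate 3, and 24 to 35 lower. No list gene was called in these fits. The causes were not tested. With the replicate number as a block the log2 fold change of Mcoln2 was 0.52 (adjusted p = 0.0082), and same-numbered libraries did not deviate together (correlations 0.0746, -0.124 and 0.172), so the numbers were not taken as pairs. Mitf had the fewest counts of the 10 genes, 5 to 22 per library, and the widest interval.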
